A study of Mus musculus with 1 sample.

Results

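Blood progenitors must be kept alive long enough to mature, and the Bcl2 family sets the mitochondrial arm of that decision. The 10 genes described here were taken by symbol from the 32285 genes of the count matrix, and each symbol matched 1 row. They comprise 5 survival genes (Bcl2, Bcl2l1, Mcl1, Bcl2a1b and Bcl2a1d), 2 effectors of death (Bax and Bak1) and 3 genes for the BH3-only proteins Puma (Bbc3), Bim (Bcl2l11) and Bid (Bid). They were measured by single-cell RNA-seq, in 1 library, in lineage-negative, Kit-positive (Lin- Kit+) marrow of femora and tibiae, a sort enriched for stem cells and early progenitors. The mice were C57BL/6, carried floxed Brd9 alleles (Brd9 fl/fl) without the Mx1-Cre transgene, and served as the controls of a Brd9 deletion study. They had received 3 doses of 20 mg/kg polyinosinic-polycytidylic acid (pIpC), an inducer of interferon, and their marrow was taken 8 weeks later. The sample's own labels name CD45.2(+) donor cells in CD45.1(+) CD45.2(-) recipients injected 4 weeks after transplant, whereas the series text names primary mice injected 4 weeks after birth, so which applies was not settled. The study's text gives an older age for the mice of its RNA-seq of these cells than the series text implies. The number of mice behind the library and their sex were not given in the sources used here, and with 1 library there is no replicate: every interval below covers counting error only, and no test between animals could be made.

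As background, the survival proteins Bcl2, Bcl-xL (Bcl2l1), Mcl1 and A1 (Bcl2a1) hold Bax and Bak1 in check at the outer membrane of the mitochondrion. BH3-only proteins such as Bim, Puma and Bid occupy the survival proteins or activate Bax and Bak1 directly, after which the membrane opens, cytochrome c is released and caspases are activated. In blood formation Mcl1 is needed for the survival of stem cells, Bcl2 is prominent in lymphoid cells, Bcl2l1 supports platelets and late red cell precursors, and Bim limits lymphoid and myeloid cells. All of these proteins are also controlled after transcription, which counts of RNA do not show.

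The question was of which survival paralogue each kind of progenitor holds RNA, and how much RNA of the death genes stands beside it. Levels are given as unique molecular identifiers (UMIs) of a gene per 1000000 UMIs (CPM), summed over the cells of a set, with exact 95% Poisson intervals. Because the assay counts the 3′ ends of molecules, no scaling by gene length was applied. Capture can differ between genes, so shares of one gene among several are compared between sets of cells, not read as absolute ratios of molecules.

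Cells were sorted in silico into 12 marker gates. A cell entered a gate when, after thinning every cell to 5000 UMIs, it held UMIs of at least 2 genes of a short marker list that contains no family member (at least 4 for the granulocyte-monocyte gate). Of 7645 cells that passed the study's filter, 7546 were deep enough to thin and 5995 fell into a single gate. The 9 gates with over 100 cells were monocyte (1803 cells), erythroid (1244), granulocyte-monocyte (789), stem (707), megakaryocyte (401), neutrophil (325), basophil/mast (293), dendritic (203) and Flt3 progenitor (171). Marker genes kept out of the gates checked them. In the stem gate 5 of 6 check genes were at their highest, among them Ly6a and Slamf1, and all 5 were highest in the erythroid and the megakaryocyte gates. Of the 5 check genes of the neutrophil gate, the later granule genes Ltf and Mmp8 had no UMI there, while the other 3 were highest. In the Flt3 progenitor gate 3 of 5 check genes were at least 2-fold above the other gated cells and 1 was highest, with Cd52 at 1.17 times and Cd48 at 1.37 times. In the monocyte gate all 5 were at least 2-fold above, and 1 was highest. None of the 5 check genes was highest in the granulocyte-monocyte gate, where 4 were at least 2-fold above the other gated cells. In the dendritic gate 4 of 5 check genes were at least 2-fold above the other gated cells, among them Batf3 (209.8 CPM), while the plasmacytoid marker Siglech, one of the gate's own genes, had 9 UMIs. Median depth ran from 8465 UMIs per cell in the stem gate to 32471.5 in the erythroid gate, and the median mitochondrial share was highest in the stem gate at 4.87%.

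Before the values, the sequence of the Bcl2a1 copies is needed to read them. On GRCm38, Bcl2a1d lies at chr9:88723285-88731914 on the minus strand, Bcl2a1a at chr9:88956900-88962419 on the plus strand and Bcl2a1b at chr9:89199209-89207827 on the plus strand. Their coding sequences are each 519 bases long. Bcl2a1b differs from Bcl2a1d at 6 aligned positions (98.8% identical), and Bcl2a1a from Bcl2a1b at 11 (97.9%). The last 120 coding bases, stop codon included, are shown because the assay reads the 3′ end of the message. Capitals mark the 2 positions at which the copies differ.
Bcl2a1a: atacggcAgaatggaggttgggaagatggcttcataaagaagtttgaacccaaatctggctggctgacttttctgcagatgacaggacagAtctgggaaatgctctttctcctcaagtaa
Bcl2a1b: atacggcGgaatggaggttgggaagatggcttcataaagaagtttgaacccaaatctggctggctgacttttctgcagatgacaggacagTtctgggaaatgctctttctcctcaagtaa
Bcl2a1d: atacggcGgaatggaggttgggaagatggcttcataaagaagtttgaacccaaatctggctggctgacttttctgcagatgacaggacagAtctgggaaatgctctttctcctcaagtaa
Of all stretches of 90 bases in the annotated Bcl2a1b transcript, 36.1% are also found, unchanged, in that of Bcl2a1d. A read from such a stretch cannot be placed on either gene, so levels of the Bcl2a1 copies are uncertain and may be too low. The other members have no close copy among the 10. On the same strand Bcl2 (chr1:106538178-106714274, minus strand) overlaps 2 annotated genes, and Bcl2a1b, Bax (chr7:45461697-45466898, minus strand) and Bid (chr6:120891930-120916853, minus strand) overlap 1 each. Bid also overlaps Bcl2l13, another family gene, on the opposite strand.

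Mcl1 and Bcl2 made up nearly all survival UMIs of these progenitors. Over all gated cells Mcl1 held 60.2% (95% binomial interval 59.6 to 60.7) of the UMIs of the 5 survival genes, Bcl2 36.6% (36.1 to 37.2) and Bcl2l1 2.64%. What differed was the balance between the first pair. Bcl2 exceeded Mcl1 in 2 of the 9 large gates, at 59.4% (56.5 to 62.3) of survival UMIs in Flt3 progenitors and 50.8% (48.9 to 52.7) in megakaryocyte-gated cells, against 38.8% and 43.4% for Mcl1. At the other end, Mcl1 held 88.4% (87.5 to 89.4) in the erythroid gate, 78.3% in the dendritic gate and 77.6% in the neutrophil gate. Stem-gated cells (Mcl1 63.3%, Bcl2 32.7%) and granulocyte-monocyte cells (61.5% and 35.5%) lay between, as did monocyte-gated cells (52.4% and 45.6%) and basophil/mast cells (57.8% and 40.8%). Put as UMIs of Mcl1 per UMI of Bcl2, the gates ran from 0.653 (0.578 to 0.736) in Flt3 progenitors to 12.0 (10.7 to 13.4) in erythroid cells.

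**Figure D1:**
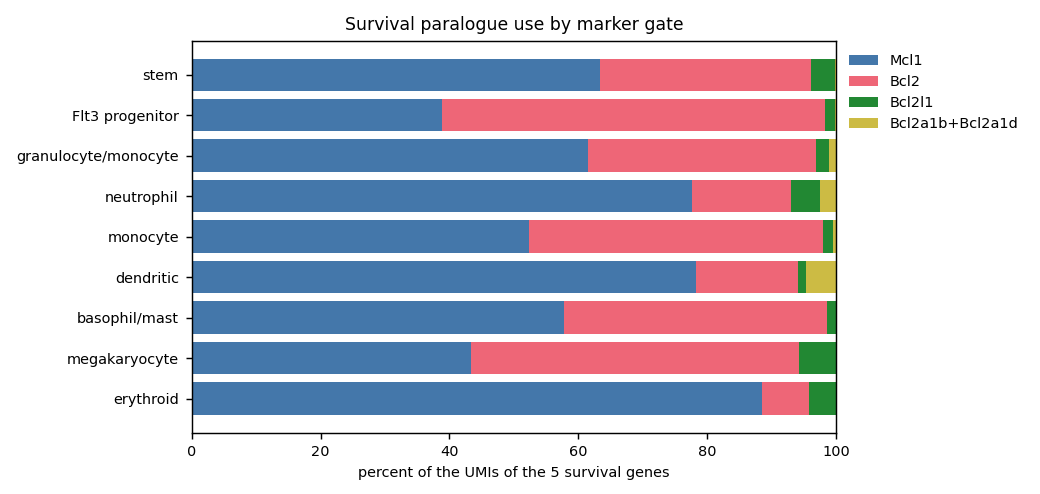
Share of the UMIs of the 5 survival genes (percent, horizontal) held by Mcl1, Bcl2, Bcl2l1 and the summed Bcl2a1b and Bcl2a1d in each of the 9 large marker gates. Bcl2 is the widest segment in Flt3 progenitors (59.4%) and megakaryocyte-gated cells (50.8%), and Mcl1 takes 88.4% in the erythroid gate.

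On the scale of log2(CPM + 10), which mutes genes with few UMIs such as the Bcl2a1 copies, Bcl2 was the member whose level differed most between gates. It was highest in Flt3 progenitors at 261.1 CPM (241.9 to 281.4), followed by the megakaryocyte gate at 189.5 (179.4 to 200). Basophil/mast, monocyte and stem cells followed at 147.9, 138.6 and 134.6 CPM, and neighbours among these 3 did not differ beyond counting error. Dendritic cells (67.5) and granulocyte-monocyte cells (58.4) likewise did not differ beyond it, and were above neutrophil-gated cells at 17.96 and erythroid cells at 8.57 (7.67 to 9.54). The range over the 9 gates on the scale of log2(CPM + 10) was 3.87, wider than that of 97.5% of the 9722 genes with at least 500 UMIs, for which the median range was 1.07. Thinned to equal depth, 67.3% (59.7 to 74.2) of Flt3 progenitors held a Bcl2 UMI, against 5.87% (4.63 to 7.32) of erythroid and 6.77% of neutrophil-gated cells (without thinning 86.0%, 16.4% and 25.2%). No gate is known to lack Bcl2, so the erythroid share bounds from above what free RNA could contribute in erythroid cells. Those are the deepest cells, so this is no bound for the shallower gates. In 9 cells of the T and innate lymphoid gate Bcl2 reached 1371 CPM (1124 to 1655), with 108 UMIs and at least 1 in every cell. In 17 cells of the B-lineage gate it stood at 55.4 CPM (27.6 to 99.1).

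Mcl1 was present in every gate and differed less than Bcl2. Dendritic cells had 335.6 CPM (313.1 to 359.2), stem cells 261.1 (249.2 to 273.4) and basophil/mast cells 209.4, each separated from the next. Flt3 progenitors (170.4), megakaryocyte cells (161.7) and monocyte cells (159.2) formed a middle group whose neighbours did not differ beyond counting error. Erythroid (102.5), granulocyte-monocyte (101.2) and neutrophil-gated cells (90.1) were lowest. Bcl2 and Mcl1 thus peaked in different gates, and Mcl1 in the stem gate was 1.95 times (1.86 to 2.05) the level of the other gated cells, where Bcl2 was 1.62 times (1.52 to 1.74). The median fold of all 13077 genes with at least 50 UMIs was 1.25 in the stem gate, and both values are to be read against it.

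Bcl2l1, which encodes Bcl-xL, was low throughout, with its highest levels in a pair of gates. The megakaryocyte gate had 21.6 CPM (18.3 to 25.4) and the stem gate 15.3 (12.5 to 18.5), against 3.34 to 7.24 CPM in the remaining 7 large gates. The megakaryocyte level was 4.09 times (3.40 to 4.89) that of the other gated cells. In Flt3 progenitors Bcl2l1 was 1.17 times (0.703 to 1.85) as high, and 2.07 times with 1 more marker gene required per gate. Neighbours from Flt3 progenitors down to the erythroid gate did not differ beyond counting error, and erythroid cells, at 4.72 CPM (4.06 to 5.46), were within that group. After thinning, a Bcl2l1 UMI was seen in 8.23% of megakaryocyte, 7.50% of stem and 1.85% of erythroid cells (30.7%, 13.4% and 13.4% without thinning, where erythroid cells are the deepest).

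The Bcl2a1 copies were rare and had their highest levels in dendritic cells. Bcl2a1d had 35 UMIs there, or 14.2 CPM (9.86 to 19.7), and Bcl2a1b 15 UMIs, or 6.06 CPM, of 72 and 100 UMIs over all gated cells. Bcl2a1a, which is not among the 10, had 10.1 CPM in the same gate. The larger monocyte gate held 40 of the Bcl2a1b UMIs at 1.01 CPM. Elsewhere among the large gates the highest levels were 1.56 CPM for Bcl2a1d and 1.41 CPM for Bcl2a1b, both in neutrophil-gated cells. No UMI of either was seen in basophil/mast cells, where 3 UMIs would have given 0.792 CPM. Even in dendritic cells the pair made up only 4.72% (3.52 to 6.17) of survival UMIs. The order of the copies differed between gates, with 2.33 (1.24 to 4.60) Bcl2a1d UMIs per Bcl2a1b UMI in dendritic and 0.350 (0.176 to 0.657) in monocyte-gated cells.

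**Figure D2:**
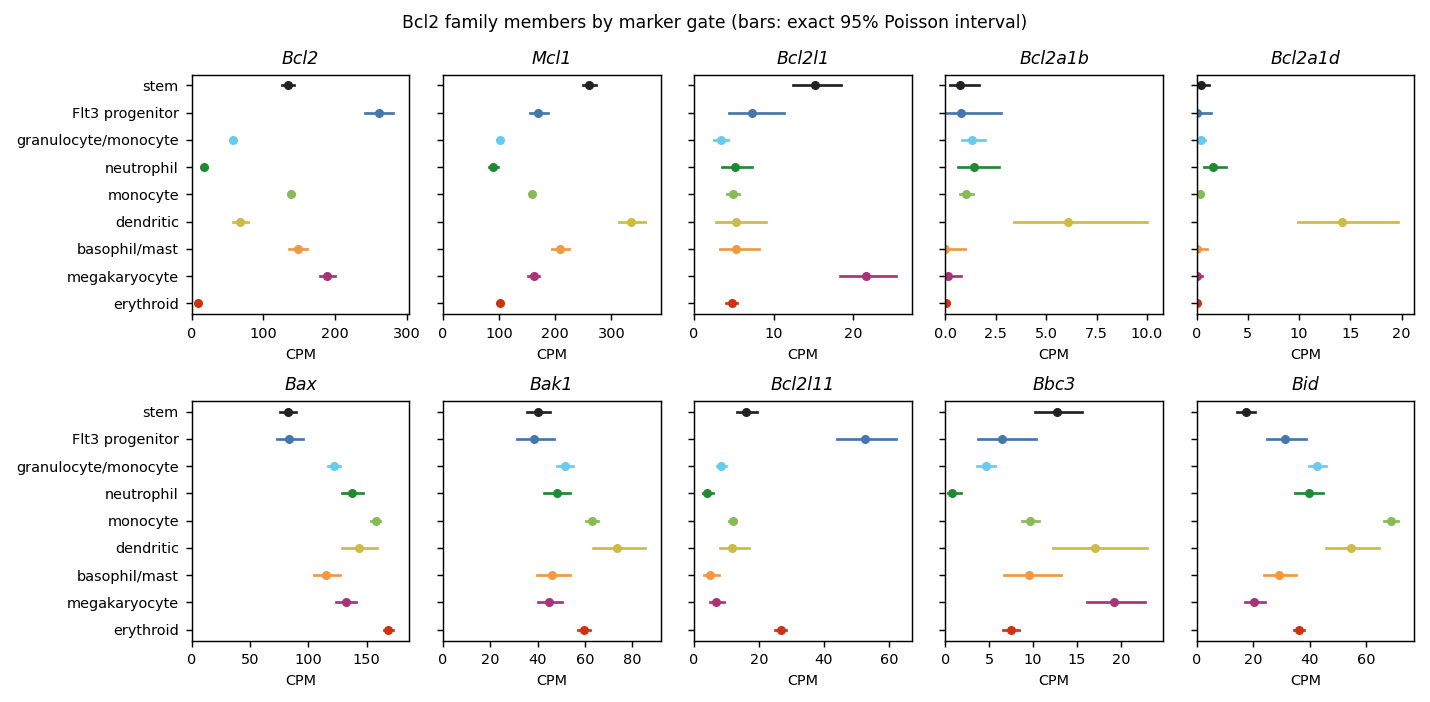
Level of each member (CPM, horizontal, each panel with its own scale from 0) in the 9 large marker gates; points are summed UMIs of 1 library and bars exact 95% Poisson intervals. Bcl2 runs from 8.57 CPM in erythroid cells to 261.1 in Flt3 progenitors, whereas Bax stays between 82.5 and 168.6.

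The effectors varied least of the 8 members with at least 500 UMIs. Bax, the cytosolic pore former, ran from 82.5 CPM (75.9 to 89.6) in stem cells to 168.6 (164.5 to 172.8) in erythroid cells. Bak1, its counterpart resident on mitochondria, ran from 38.5 CPM in Flt3 progenitors to 73.6 in dendritic cells. Their ranges over gates, 0.95 and 0.79 on the log2(CPM + 10) scale, were below the median gene's 1.07. Bax had between 1.95 (1.62 to 2.34, dendritic) and 2.95 (2.59 to 3.37, megakaryocyte) UMIs per Bak1 UMI in the large gates. The 2 gates lowest in Bax, stem and Flt3 progenitor (83.9 CPM), were also the lowest in Bak1, and in neither gene did the pair differ beyond counting error.

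The BH3-only genes were each high in a different set of gates. Bcl2l11 (Bim) reached 52.6 CPM (44.2 to 62.1) in Flt3 progenitors and 26.7 (25.1 to 28.4) in erythroid cells, and fell to 4.06 in neutrophil-gated cells. The 17 B-lineage cells, at 55.4 CPM (27.6 to 99.1), were close to Flt3 progenitors. Bbc3 (Puma) was highest in megakaryocyte (19.2, 16.1 to 22.7), dendritic (16.98) and stem cells (12.7), of which each next pair did not differ beyond counting error but the first was 1.51 times (1.15 to 2.01) the last. Only 5 Bbc3 UMIs were found in 325 neutrophil-gated cells, 0.781 CPM (0.254 to 1.82). Bid, which caspase-8 cleaves to link death receptors with mitochondria, was highest in monocyte cells at 68.7 CPM (66.1 to 71.3) and dendritic cells at 54.6, and lowest in stem cells at 17.4 (14.5 to 20.8).

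Members were also counted against the other gated cells, gate by gate. A gene is counted here when it differed at least 2-fold with an interval that excludes 1, and the percentage after each count is the share of the 13077 genes with at least 50 UMIs counted the same way. All 10 members had at least 50 UMIs. Bcl2a1d, with 72 over all gated cells, did so only through its 35 in the dendritic gate, so its dendritic call adds no support. The same UMIs raise the level it is compared with in the other gates. Bcl2a1b and Bcl2a1d are near-identical copies and are not 2 independent members. Flt3 progenitors had 2 members higher, Bcl2 (3.18-fold) and Bcl2l11 (3.42-fold), beside 10.9% of genes, and 0 lower, beside 6.44%. In the megakaryocyte gate Bcl2, Bcl2l1 and Bbc3 were higher, 3 members beside 13.8% of genes, and Bcl2a1b, Bcl2a1d, Bcl2l11 and Bid lower, 4 beside 9.83%. The calls of Bcl2a1b and Bcl2a1d there rest on 1 and 0 UMIs, with upper limits of 0.986 and 0.900 times. Dendritic cells had 4 higher (Mcl1, Bcl2a1b, Bcl2a1d and Bbc3) beside 9.78%, and 0 lower beside 12.9%. Erythroid cells had 1 higher, Bcl2l11 at 2.31-fold (2.12 to 2.52), beside 9.34% of genes, and 3 lower (Bcl2, Bcl2a1b and Bcl2a1d) beside 29.1%, with 2 UMIs for each Bcl2a1 copy.

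The remaining gates had at most 1 member on the higher side. In stem cells Bcl2l1 (2.70-fold) was higher and Bid (0.369 times) lower, 1 member in each direction beside 26.7% and 9.77% of genes. Monocyte cells had only Bcl2 higher (2.25-fold, 1 member beside 6.27%) and 0 lower (beside 16.4%). In neutrophil-gated cells Bcl2a1d was higher, on 10 UMIs (1 beside 2.75%), and Bcl2, Bbc3 and Bcl2l11 were lower (3 beside 26.1%). Granulocyte-monocyte cells had 0 higher (beside 2.21%) and Bcl2l1, Bbc3 and Bcl2l11 lower (3 beside 16.4%), the first of them at the threshold, with an interval of 0.378 to 0.650. Basophil/mast cells had 0 higher (beside 8.68%) and Bcl2l11 lower (1 beside 12.2%). Some of these calls lie near the 2-fold line. With gates read on all UMIs, granulocyte-monocyte cells lost all 3, with Bcl2l1 at 0.686, Bbc3 at 0.913 and Bcl2l11 at 0.576 times, and the monocyte Bcl2 ratio was 1.84. As means of single-cell levels Bcl2 was 1.73 times as high in monocyte and 1.95 times in megakaryocyte cells, Bcl2l11 1.94 times in erythroid cells, and Bbc3 1.88 times in dendritic cells. The counts on the lower side in neutrophil and erythroid cells were close to the share of all genes, and the median of all genes there was itself below 1, at 0.674 and 0.908 times. Also close to that share were the counts of 1 lower in stem cells, 1 lower in basophil/mast cells and 1 higher in erythroid cells. Such counts are no result about the members.

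The amount of effector RNA per survival RNA differed between gates, and the survival side had the wider range. Summed survival UMIs ran from 116 CPM in erythroid and neutrophil-gated cells to 439 in Flt3 progenitors, 429 in dendritic and 412 in stem cells, whereas Bax and Bak1 together ran from 122 to 228 CPM. Per survival UMI there were 1.97 (1.90 to 2.04) Bax and Bak1 UMIs in erythroid cells, 1.60 (1.46 to 1.75) in neutrophil-gated cells and 1.05 in granulocyte-monocyte cells. Monocyte cells had 0.726, dendritic cells 0.506, megakaryocyte cells 0.475 and basophil/mast cells 0.446. Stem cells, at 0.297 (0.275 to 0.321), and Flt3 progenitors, at 0.278 (0.245 to 0.315), were lowest and overlapped. The 3 BH3-only genes per survival UMI gave a similar but not identical order, from 0.112 (0.0993 to 0.126) in stem cells to 0.607 (0.578 to 0.637) in erythroid cells, and Flt3 progenitors, at 0.206, were above stem cells on this measure. Both ratios divide by the same survival UMIs, and neither is a measure of protein.

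**Figure D3:**
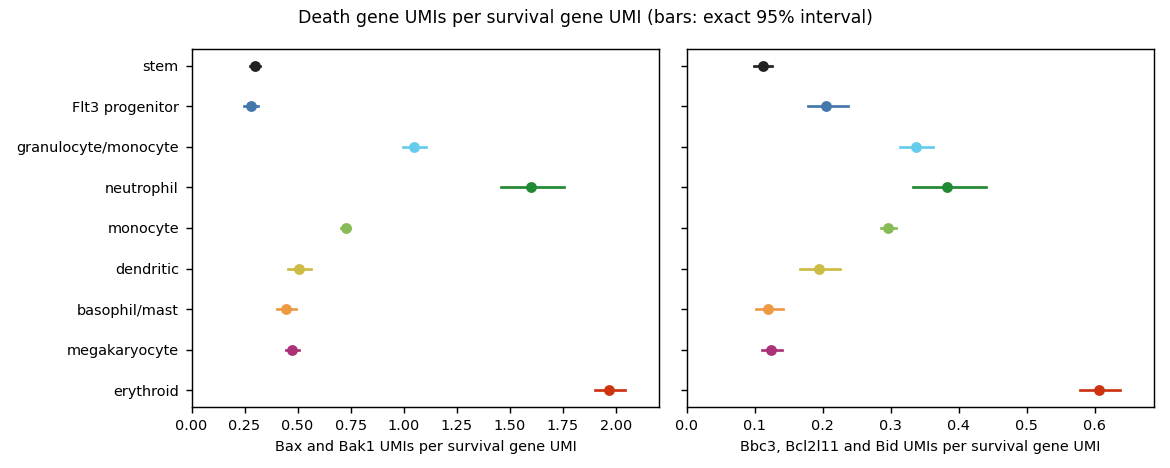
UMIs of Bax and Bak1 (left) and of Bbc3, Bcl2l11 and Bid (right) per UMI of the 5 survival genes in the 9 large gates, with exact 95% intervals. Erythroid cells are highest in both panels (1.97 and 0.607), and stem cells are low in both (0.297 and 0.112).

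Next, members were followed along maturation inside a gate, using later-stage markers that include no member. In the erythroid gate there were 5 markers, among them the red cell membrane genes Rhag, Ermap, Slc4a1 and Epb42. From cells with at most 1 such UMI, through 2, 3 to 4, and 5 to 7, to cells with 8 or more, Bcl2 went from 20.3 CPM (17.1 to 23.9) to 12.1, 7.20, 3.08 and 1.26 (0.505 to 2.59). Bcl2l11 went the other way across the same 5 bins, from 15.7 CPM to 21.6, 23.7, 34.6 and 39.4. Kit, as a check of the order, was 115.2 CPM in the first bin and 6.28 in the last, and Gata2 97.1 and 4.48. The last bin also bounds the free Bcl2 RNA in its own cells at about its own level, but not in shallower cells.

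Taken as a comparison of 438 late with 290 early erythroid cells, the Bcl2 level was 0.117 times as high (0.0778 to 0.171) and Bcl2l11 2.33 times (1.89 to 2.89). These were the only members beyond 2-fold of the 8 with at least 50 UMIs, 1 in each direction, beside 4.60% of 9441 genes higher and 12.6% lower. Mcl1 (0.920 times, 0.842 to 1.01), Bax (1.04, 0.965 to 1.11), Bak1 (1.02, 0.907 to 1.16) and Bid (0.959, 0.823 to 1.12) had intervals that include 1. Bbc3 was 0.671 times as high (0.488 to 0.926). These values depend on how the gates and stages were read: on all UMIs without thinning, Mcl1 was 0.597 times, Bax 1.74 times, Bak1 1.95 times and Bbc3 0.190 times as high in late cells. As means of single-cell levels Bbc3 was 0.383 times as high. Bcl2l11 was 1.95 times as high with 1 more marker gene. Bcl2 was 0.186 times as high with 1 more marker gene, 0.178 times with cells of several gates kept and 0.0522 times on all UMIs. Bcl2l1 had 5.71 CPM in late and 4.17 in early cells, a ratio of 1.37 whose interval (0.887 to 2.17) includes 1. Consequently Mcl1 held 92.6% (91.2 to 93.9) of survival UMIs in late and 81.7% (79.0 to 84.1) in early erythroid cells, and Bcl2 2.16% and 15.0%.

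Monocyte-gated cells exchanged Bcl2 for Mcl1. Over cells with 0, 1, 2 to 3, and 4 or more UMIs of 4 marker genes, among them Fn1, Tgfbi and Klf4, Mcl1 went from 132.3 CPM to 175.2, 200.6 and 276.0, and Bcl2 from 156.3 to 121.0, 110.6 and 85.7. In 422 late against 1040 early cells Mcl1 was 1.68 times (1.58 to 1.78) and Bcl2 0.662 times (0.614 to 0.713) as high. Survival UMIs summed to 295 CPM in early and 333 in late cells, while the Mcl1 share went from 44.9% (43.7 to 46.1) to 66.8% (65.0 to 68.5). Bbc3 was 1.61 times (1.26 to 2.04), Bak1 1.21 times (1.10 to 1.33) and Bax 1.10 times (1.03 to 1.17) as high in late cells, and Bax and Bak1 per survival UMI was 0.722 in both. Of 8 members with at least 50 UMIs, 0 passed 2-fold in either direction, beside 3.75% of 10605 genes higher and 2.13% lower.

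In the neutrophil gate only Bcl2, among the members, had a stage ratio with an interval that excludes 1. Bcl2 had 12.8 CPM in 151 late and 21.8 in 174 early cells, by UMIs of S100a8, S100a9, Ngp, Camp and Ltf, a ratio of 0.586 (0.382 to 0.882). That ratio was 0.446 with gates read on all UMIs. Mcl1 stood at 90.6 and 89.8 CPM (interval of the ratio 0.852 to 1.19), Bax at 138.1 and 137.3, and Bak1 at 46.0 and 49.7, with intervals that include 1. Bcl2l11, on 6 and 20 UMIs, had a ratio of 0.402 with an interval of 0.132 to 1.04. Of 5 members with at least 50 UMIs, 0 passed 2-fold in either direction, beside 0.237% of 7180 genes higher and 0.877% lower. Bcl2 was thus lower in the later cells of all 3 lineages, and the interval of its neutrophil ratio contains that of the monocyte ratio (0.614 to 0.713). The differences between lineages have no replicate and were not tested.

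**Figure D4:**
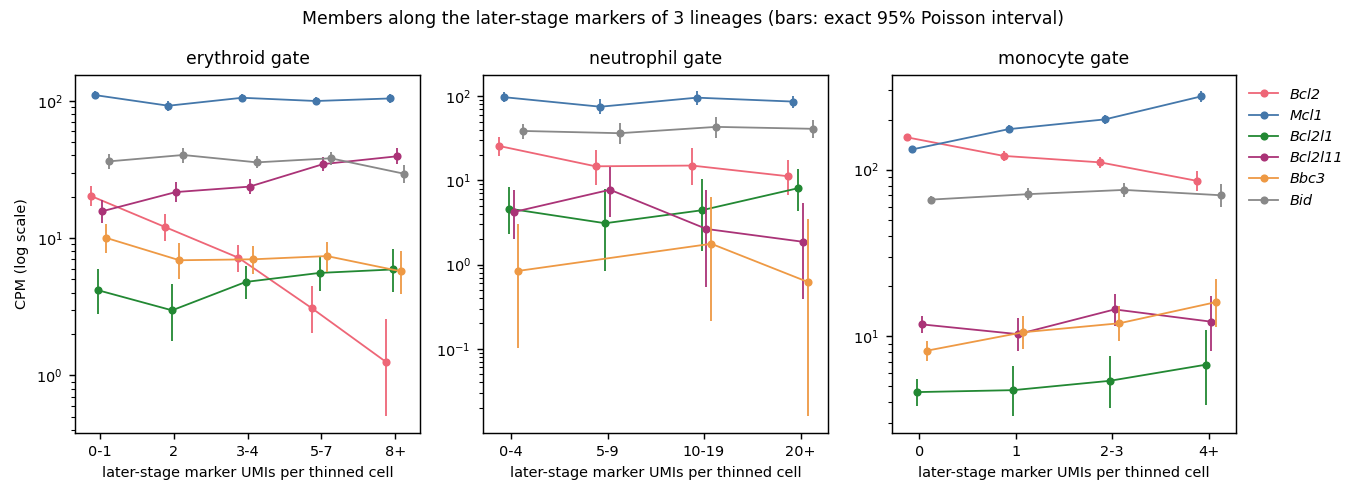
Levels (CPM, log axis, each panel with its own range) of 6 members in cells of the erythroid, neutrophil and monocyte gates, binned by later-stage marker UMIs per thinned cell; bars are exact 95% Poisson intervals, and a bin with no UMI of a gene has no point. In erythroid cells Bcl2 goes from 20.3 to 1.26 CPM and Bcl2l11 from 15.7 to 39.4, and in monocyte cells Mcl1 goes from 132.3 to 276.0 CPM and Bcl2 from 156.3 to 85.7.

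Because these changes are of RNA from whole genes, the starts of Bcl2, Bcl2l11 and Mcl1, 3 of the members whose level differed with stage, are shown. Each sequence is the 250 bases before a RefSeq start on GRCm38.p6, 5′ to 3′ on the gene's strand, with capitals for matches on either strand to any of 6 short motifs.
Bcl2, chr1:106714291-106714540, minus strand: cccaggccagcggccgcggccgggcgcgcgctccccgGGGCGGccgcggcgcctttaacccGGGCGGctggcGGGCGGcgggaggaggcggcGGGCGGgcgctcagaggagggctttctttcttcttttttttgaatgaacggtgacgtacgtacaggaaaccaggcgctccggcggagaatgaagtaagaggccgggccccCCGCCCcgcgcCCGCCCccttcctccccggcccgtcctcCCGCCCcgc
Bcl2l11, start 1, chr2:128125788-128126037, plus strand: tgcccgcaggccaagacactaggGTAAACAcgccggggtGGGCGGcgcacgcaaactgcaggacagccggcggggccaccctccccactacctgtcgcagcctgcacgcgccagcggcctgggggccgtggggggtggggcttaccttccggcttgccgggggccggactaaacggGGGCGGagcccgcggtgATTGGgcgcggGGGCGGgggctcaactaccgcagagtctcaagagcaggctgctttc
Mcl1, chr3:95658471-95658720, plus strand: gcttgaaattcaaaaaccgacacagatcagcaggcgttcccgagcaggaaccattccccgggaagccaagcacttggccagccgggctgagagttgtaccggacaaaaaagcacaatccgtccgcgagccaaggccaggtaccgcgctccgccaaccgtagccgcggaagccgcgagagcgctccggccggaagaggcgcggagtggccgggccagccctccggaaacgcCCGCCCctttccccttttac
The Bcl2 window holds 7 matches to the GC box, GGGCGG, a motif found in 32.7% of 32851 such windows, and none to the others. The Mcl1 window holds 1 match to it and none to the others. The Bcl2l11 window holds 3, with 1 match to CCAAT, found in 33.8% of windows, and 1 to the forkhead letters GTAAACA, found in 3.17%. It lies before the first of 2 listed starts of the gene, and the window before the second (73.2% GC) holds 2 GC boxes, 2 CCAAT matches and none to the forkhead letters. The letters AGATAA of GATA factors (9.99% of windows), CACGTG of the E-box (6.02%) and TATAAA of the TATA box (12.4%) are in none of the 3. GC content was 74.8% for Bcl2, 72.0% for Bcl2l11 and 64.4% for Mcl1, against a median of 52.4% over all windows. A match of letters is a description and not evidence of binding, and nothing in these data was measured at the promoters.

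Cells with cycle marker UMIs (at least 2 of Mki67, Top2a, Cdk1, Ccna2, Ccnb1 and Ube2c) were compared with cells that had none, inside each large gate. The share of all genes that differ in these contrasts was not computed, so the values below have no background. Cycling cells had the higher median depth in every large gate, for example 13330 against 8214.5 UMIs in the stem and 19740 against 11452 in the Flt3 progenitor gate. Mcl1 was lower in cycling cells of the stem (0.778 times, 0.691 to 0.874), Flt3 progenitor (0.668, 0.540 to 0.826), basophil/mast (0.720, 0.609 to 0.854) and dendritic gates (0.804, 0.682 to 0.951), and higher in the monocyte gate (1.15, 1.04 to 1.27). Bbc3 was lower in cycling cells of 5 gates with an interval below 1, from 0.253 times (0.165 to 0.407) in erythroid to 0.572 times (0.387 to 0.850) in megakaryocyte cells. Bax was lower in cycling megakaryocyte cells, at 112.5 against 166.7 CPM, while Bak1 was higher there (1.36 times, 1.02 to 1.82). In cycling erythroid cells both were higher, Bax 1.25 times (1.04 to 1.52) and Bak1 1.53 times (1.09 to 2.21). In the dendritic gate the Bcl2a1 copies went with the cells without cycle UMIs. Bcl2a1d had 36.7 CPM in 55 such cells and 4.53 in 114 cycling cells, a ratio of 0.124 (0.0441 to 0.304), and Bcl2 had 40.3 and 82.2 CPM. Erythroid cells without cycle UMIs numbered 66 of 1244 and had 33.7 CPM of Bcl2 against 7.44 in 1109 cycling cells. They are also shallower, with a median of 11307 UMIs against 33403, and the part of stage in this contrast was not tested.

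In single cells, the share with an Mcl1 UMI was compared between cells with and without a Bcl2 UMI, and the intervals overlapped in all 9 large gates. After thinning, 70.9% (65.6 to 75.8) of stem cells with a Bcl2 UMI also held an Mcl1 UMI, as did 68.0% (63.0 to 72.6) of those without. In monocyte cells the shares were 50.3% (46.7 to 53.8) and 55.5% (52.3 to 58.6), and in dendritic cells 75.5% and 83.3%. No UMI of any survival member was seen at this depth in 15.6% of stem, 11.3% of dendritic, 55.5% of erythroid and 58.2% of neutrophil-gated cells. At 5000 UMIs per cell many molecules go unseen, so this does not show that the genes are off.

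The genes whose pattern over the 9 gates was most like that of a member were looked up among genes with at least 500 UMIs, by Pearson's r of log2(CPM + 10). For Bcl2 they were Usp28 (r = 0.957), Pik3cg (0.954) and Dhrs3 (0.953), all highest in Flt3 progenitors and lowest in erythroid cells. For Bcl2l1 they were Med12l (0.986), Ehd3 (0.983) and Gucy1a1 (0.982), all highest in the megakaryocyte gate. For Mcl1 they were Plekhm1 (0.985), Mvp (0.982) and Trim41 (0.971), and for Bcl2a1b, which had 100 UMIs itself, Efhd2 (0.986), Rab7b (0.979) and 2310040G24Rik (0.973), all highest in dendritic cells. Among the members, Bcl2 had r = 0.560 with Mcl1, 0.479 with Bcl2l1 and -0.608 with Bax. The 9 points share 1 library and differ in depth, so these are descriptions.

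Finally, 50 further genes of the pathway, in 9 lists, were read in the same gates, and the genes with the extreme ratios of a gate to the other gated cells are named, list by list. Of the other survival genes, Bcl2a1a was 179 times (75.3 to 490) as high in dendritic cells on 25 of its 32 gated UMIs, and had 0 UMIs in 5 of the large gates. Bcl2l2, which encodes Bcl-w, was low everywhere, from 2.43 CPM in dendritic to 10.4 in stem cells, and Bcl2l10 had no UMI in any kept cell. Of the 7 other BH3-only genes, 6 had at least 50 UMIs, and Hrk had none in any kept cell. Bmf, at 8.49 CPM, was 34.0 times as high in dendritic cells on 21 UMIs, and Bik had 0 UMIs in neutrophil-gated cells and Flt3 progenitors. Of the 5 effector-like genes, Bcl2l15 was 26.3 times (18.3 to 39.1) as high in erythroid cells, where it went from 3.02 CPM in the first stage bin to 18.5 in the last, and Bok had 0 UMIs in dendritic cells.

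More lists were read in the same way. Of the 5 inhibitors of apoptosis, Birc3 was 3.91-fold higher (3.00 to 5.03) in dendritic and 0.164 times as high in erythroid cells. Of the 6 death receptor genes, 4 were at least 2-fold lower in erythroid cells (beside 29.1% of all genes), with Tnfrsf1a lowest at 3.97 CPM (0.0745 times, 0.0630 to 0.0876), and Fas was highest in the megakaryocyte gate at 4.73 CPM. Of the 7 genes around p53, Cdkn1a was 5.89-fold higher (5.07 to 6.82) in Flt3 progenitors at 77.4 CPM, and Phlda3 lowest, with 1 UMI in basophil/mast cells. Among the 4 genes of Mcl1 protein turnover, none of the 3 with at least 50 UMIs was at least 2-fold different in any large gate. Trim17, with 3 UMIs in all gated cells, had the extreme ratios and is not read. Of 3 mitochondrial porins, Vdac2 was lowest in stem cells (175.7 CPM, 0.495 times) and Vdac1 highest in erythroid cells (298.8 CPM, 1.39 times).

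In dendritic cells 2 of the 6 other BH3-only genes with at least 50 UMIs, Bmf and Pmaip1, were at least 2-fold higher (beside 9.78% of all genes). Bmf, with 52 UMIs in all gated cells, met that minimum only through its dendritic UMIs, so its call adds no support. Pmaip1, which encodes the Mcl1 partner Noxa and is named after its values were seen, stood at 59.4 CPM in dendritic, 14.5 in monocyte and 0.571 in erythroid cells. In the monocyte gate it was 2.20 times (1.82 to 2.66) as high in late as in early cells, and 37.8 CPM in the last stage bin, where Mcl1 was also at its highest of that gate.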

How the data were processed

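The authors deposited raw UMI counts, 1 whole number for each gene in each barcode, from a 10x Chromium 3′ v3.1 library processed, per the submitters' notes and the study's methods, with Cell Ranger 6.0.2 and mm10. The labels' extraction text describes a bulk kit and was not followed.

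Cells were kept by the limits in the study's methods: UMIs above 1000 and below 50000, genes above 1000 and below 6500, and under 7% mitochondrial UMIs. This kept 7645 of 8817 barcodes, with 1592 to 49991 UMIs each. Gates were read on counts thinned without replacement to 5000 UMIs (seed 1), which left out 99 cells. A gate needed at least 2 marker genes and 3 UMIs (4 genes and 50 UMIs for granulocyte-monocyte, 10 UMIs for dendritic, basophil/mast and eosinophil). B-lineage went before Flt3 progenitor, dendritic before monocyte and Flt3 progenitor, and eosinophil before neutrophil and basophil/mast, the granulocyte-monocyte gate took only cells of no other gate, 337 cells in several gates were left out, and 1214 had none. No doublet caller was run. An alternative removed the 6% of cells of each gate with the most UMIs. Gate minima were set after marker counts, but no member's count, had been seen. The members, gene lists and markers were chosen with earlier results of these data known.

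Levels use all UMIs of gated cells. Intervals (scipy 1.17.1, 95%) are exact Poisson for levels, Clopper-Pearson for shares and conditional binomial for ratios, and cover counting error only. No p-value was computed. Named genes were all members, the genes with the extreme ratios of each list (those of 1 list are not reported here), and the 3 most alike genes for 4 members. Coordinates are from GENCODE M21 (GRCm38), where all 10 members matched by identifier, coding sequences from its transcripts, and promoters from RefSeq. Free RNA was not removed. The ratio step was tested on simulated data: of 200 genes changed 4-fold in the megakaryocyte gate comparison over 13053 genes, 100% were called, and 0.373% of unchanged genes. The changed genes were drawn from those with at least 500 UMIs, and the counts from the Poisson model that the intervals assume. This checks the computation only, and not calls near 2-fold or on few UMIs.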

Additional observations from a re-analysis of the deposited data

Results flagged for a closer look

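Barcodes removed for a mitochondrial share of at least 7% (909 of 8817) entered no comparison above, and 4 members stood higher in them than in the kept cells, per UMI of genes outside the mitochondrial genome. The share of all genes that stood higher in these barcodes was not computed. Their median depth was 2407 UMIs against 18696 in kept cells, and 386 of them had over 1000 genes. Bcl2l11 was 2.67 times as high (2.17 to 3.26), at 44.7 against 16.7 CPM on that scale. Bcl2 was 1.52 times as high (1.36 to 1.69) and Bcl2l1 1.58 times (1.04 to 2.31), the latter on 27 UMIs, and Mcl1 was 1.16 times as high (1.05 to 1.28). Bax and Bak1 were lower, at 0.759 and 0.757 times. The removed barcodes also differed in marker genes: per UMI outside the mitochondrial genome, the erythroid gate markers were 1.53 times, the stem markers 1.55 times and the monocyte markers 0.428 times their level in kept cells. The part of this difference in cell make-up was not tested.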

How the results depend on the processing

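Of 1252 values recomputed under alternatives, 1124 stayed within their counting interval (for counts of genes, within 1.5 times), 125 moved and 3 reversed, and in each case the cause was not tested. No level or stage ratio of Bcl2a1b or Bcl2a1d is among these values, so the calls of these copies were not checked this way. With gates read on all UMIs, Bcl2 in dendritic cells went from 0.785 to 1.19 times the other gated cells, Bbc3 in monocyte cells from 1.19 to 0.916, Bcl2 late over early from 0.117 to 0.0522 in erythroid and from 0.662 to 0.870 in monocyte cells, Mcl1 in dendritic cells from 2.45 to 2.22, and the Bcl2 share in Flt3 progenitors from 59.4% to 50.9%. With 1 more marker gene per gate, Bid in neutrophil-gated cells went from 0.866 to 1.09, Bcl2 late over early erythroid to 0.186, and Bcl2l1 in megakaryocyte cells from 4.09 to 4.96. With cells of several gates kept, Bcl2 late over early erythroid was 0.178, the erythroid Mcl1 share 86.9% (from 88.4%) and erythroid Bax and Bak1 per survival UMI 1.89 (from 1.97). That ratio was 1.90 with all deposited barcodes. As means of single-cell levels, Mcl1 in dendritic cells was 2.22, the Bcl2 share in Flt3 progenitors 56.1%, the erythroid Mcl1 share 85.8% and the erythroid ratio 1.76. Without mitochondrial, ribosomal protein and haemoglobin UMIs in the denominator, Mcl1 in dendritic cells was 2.22. Between the earliest and latest stage bin, an alternative chosen after seeing the data, Bcl2 was 0.0619 in erythroid and 0.548 in monocyte cells, and Mcl1 2.09 in monocyte cells. The other seed and the minimum of UMIs per gene moved none beyond that interval. Calls near the 2-fold line also changed: Bcl2l1 in granulocyte-monocyte cells was between 0.507 and 0.686 times under 7 alternatives, the other seed among them, and Bbc3 in dendritic cells between 1.84 and 1.98 under 4. Bax in Flt3 progenitors passed the line at 0.472 with 1 more marker gene, and Bid in monocyte cells at 2.02 with gates on all UMIs and 2.09 as a mean of single-cell levels. Cells at the minimum of their gate made up 73.8% of neutrophil-gated, 63.8% of megakaryocyte and 51.5% of Flt3 progenitor cells. No paired analysis was possible because there is 1 library, and no replicate could be left out.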

Other observations

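The 1214 cells in no gate and the 337 in several belong to no comparison above. Cells in no gate had 158.4 CPM of Bcl2 (152.6 to 164.2), 178.0 of Mcl1, 12.5 of Bcl2l1 and 16.5 of Bbc3, and 96.6 of Bax. Bcl2 there was above the 85.7 CPM of all gated cells and Bax below their 145.7. Cells in several gates had 163.3 CPM of Bcl2 and 174.1 of Mcl1. The 33 cells of the eosinophil gate had 70.6 CPM of Bcl2 (49.2 to 98.2) and 129.2 of Mcl1 (99.5 to 164.9). In 213 barcodes above the upper limits of the filter, Bcl2 was 0.479 times (0.439 to 0.521) and Bcl2l11 1.42 times (1.25 to 1.61) as high as in kept cells, per UMI outside the mitochondrial genome.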
